A study of Rattus norvegicus with 20 samples.

Results

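The comparison described here sets rat β cells transfected with siRNA against *Piezo2* (si-P2) against untransfected cells (Untr), gene by gene, with 4 libraries of each, 8 of the 20 in the series. All cells are INS-1 832/13, a clone of INS-1 rat insulinoma cells that releases insulin in response to glucose and was made with a human proinsulin gene. What is seen in 1 such clone need not hold for islet β cells. The si-P2 cells received a pool of siRNAs to rat *Piezo2* at 25 nM in lipid, a second dose after 48 h, and were harvested 48 h after that. The control cells (si-Ctrl) went through the same steps with a non-targeting siRNA, and Untr cells received no siRNA. Cells with siRNA to *Piezo1* (si-P1) or to both genes (si-P1+2) complete the series. The genes followed are the 15802 of 23487 listed detected in 10 or more of the 20 libraries, a rule that uses no difference between groups. A difference between si-P2 and Untr holds the *Piezo2* siRNA and the transfection together, and these cannot be told apart in this comparison, so si-Ctrl values are given for many of the genes.

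PIEZO2 is a large ion channel that opens when the cell membrane is stretched, and it is best known from the sensory neurons of touch and body position. Its relative PIEZO1 is the form studied in β cells, where cation entry through it depolarizes the membrane. Small interfering RNAs guide the cell's own silencing machinery to matching mRNAs, and they can also reach transcripts with partial matches, which is why a non-targeting siRNA is used as a control.

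The values are counts that the authors normalized to a common depth, here called normalized counts. Behind them were 25314021 to 51918772 reads in the si-P2 libraries and 18536093 to 52066167 in the Untr libraries. The β-cell genes *Ins1*, *Ins2*, *Iapp*, *Pdx1*, *Mafa*, *Nkx6-1*, *Slc2a2*, *Abcc8* and *Kcnj11* were present in all 8 libraries, with *Ins1*, which shares reads with its near copy *Ins2*, at 82673 to 121473 in si-P2 and 57283 to 91334 in Untr. Markers of cells outside the islet, 13 of 24 of them measured, summed to 410 to 579 in si-P2 and 535 to 733 in Untr. Markers of other endocrine cells, 8 of 15 measured, summed to 15532 to 19617 in si-P2 and 15945 to 17879 in Untr, and the part of either in the results was not tested. Si-Ctrl replicate 3 stood apart, with a median correlation of 0.944 with its own group where each other library had at least 0.986. It is not among the 8 libraries compared, but it widens the spread that all groups share in the fit.

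*Piezo2* was barely expressed in any group. The targeted mRNA (ENSRNOG00000038784) had 3.71, 12.7, 5.90 and 5.02 normalized counts in the 4 si-P2 libraries, 8.91, 14.7, 10.2 and 10.9 in si-Ctrl and 13.6, 16.3, 6.72 and 9.25 in Untr. The si-P2 values rest on 6, 13, 6 and 4 reads, and the Untr values on 8, 27, 6 and 11. All si-P2 libraries but replicate 2 lay below every Untr library, and replicate 2 lay among them, so the groups overlapped. The log2 fold change was −0.72 (95% interval −1.48 to 0.03, adjusted p = 0.449, limma), so a loss of the targeted mRNA was not detectable at this depth. *Piezo1* (ENSRNOG00000056786), which this siRNA does not target, had 356, 350.4, 386 and 300.0 normalized counts in si-P2 and 336, 331, 300.0 and 271 in Untr (log2 fold change 0.17, interval −0.07 to 0.40, adjusted p = 0.618, limma). These groups overlapped as well.

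**Figure D1:**
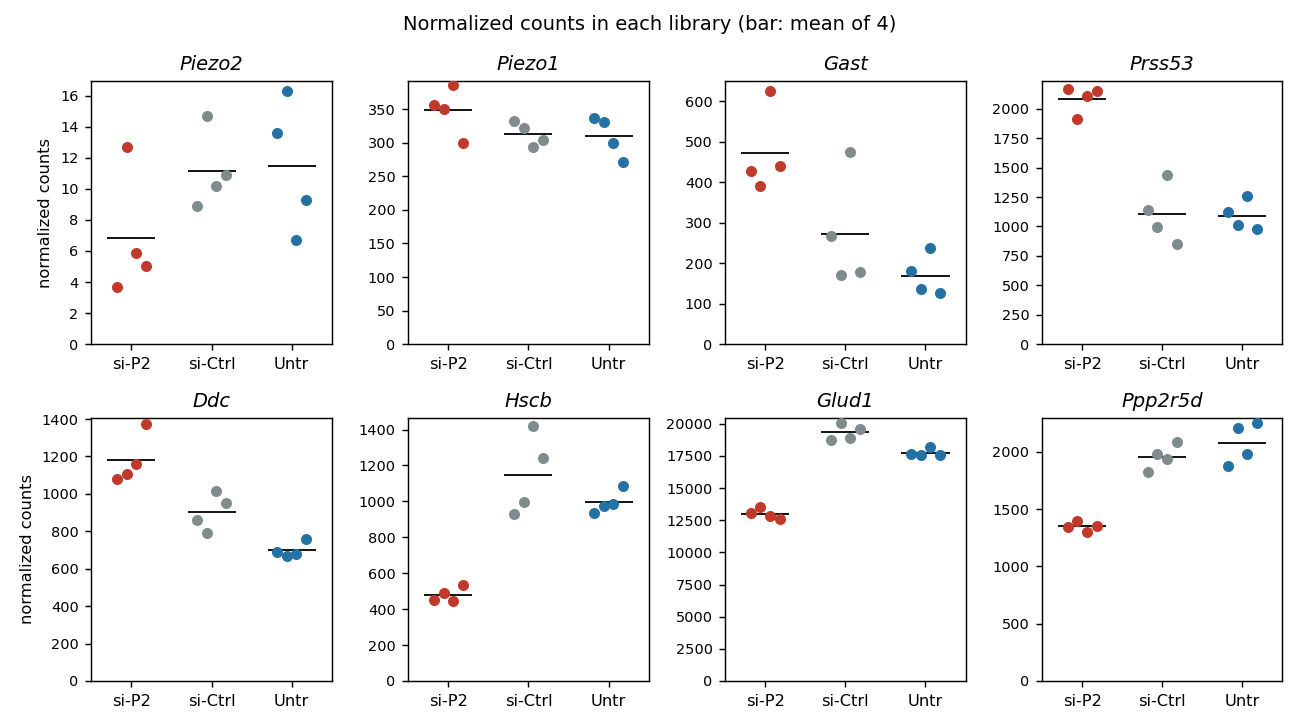
Normalized counts (vertical axes, from 0) of 8 genes in each si-P2, si-Ctrl and Untr library. Each point is 1 library and each bar the mean of 4. *Piezo2* and *Piezo1* overlap between groups, while the other 6 genes do not overlap between si-P2 and Untr.

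Of the 15802 genes, 166 differed between si-P2 and Untr at an adjusted p under 0.05 in limma, which is 1.05% of those tested. In si-P2, 97 (0.614%) were higher and 69 (0.437%) lower. The sizes were modest. The log2 fold changes of the higher genes ran from 0.21 to 2.54 with a median of 0.48, those of the lower genes from −1.09 to −0.19 with a median of −0.36, against 0.01 over all genes. Only 10 genes passed 2-fold, 8 higher and 2 lower, and 104 of the 166 were within 0.5 of 0 on the log2 scale. In all 166 the 4 si-P2 values lay wholly on one side of the 4 Untr values, as they did in 12.3% of all genes. All 166 code for proteins.

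**Figure D2:**
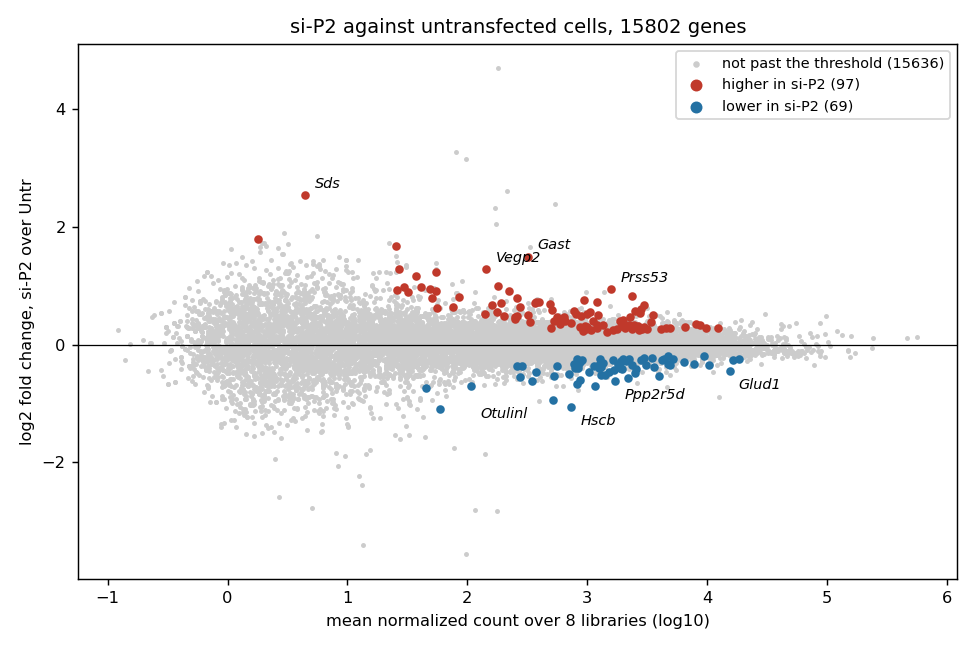
Log2 fold change of si-P2 over Untr (vertical axis) by mean normalized count over the 8 libraries (horizontal axis, log10), 1 point for each of 15802 genes. The 97 higher genes reach lower levels of expression than the 69 lower genes, with 15 of them, against 2, under 100 normalized counts in both groups.

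How many genes passed depended on the spread used. With si-Ctrl replicate 3 left out of the fit the count was 819. With the replicate number as a block, which fits 1 effect of each number shared by all 5 groups, it was 955 (6.04%). All 166 genes were among the calls in each case. Whether the numbers pair the si-P1 and si-P1+2 libraries, which are also in the block fit, was not checked. A fit of the si-P2 and Untr libraries alone called 493 genes, 151 of the 166 among them. Leaving out a compared library lowered the count, to 85 without si-P2 replicate 2, 35 without si-P2 replicate 3, 34 without si-P2 replicate 4, 75 without Untr replicate 1, 59 without Untr replicate 2, 72 without Untr replicate 3 and 81 without Untr replicate 4.

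Among the higher genes with at least 100 normalized counts, the largest change was in *Gast* (ENSRNOG00000014740), which encodes gastrin, the stomach hormone of acid secretion. It had 428, 391, 625 and 439 normalized counts in si-P2, 267, 172, 476 and 178 in si-Ctrl and 180.0, 135, 237 and 125 in Untr. Every si-P2 library exceeded every Untr library, while the highest si-Ctrl library, replicate 3, lay within the si-P2 range. The log2 fold change over Untr was 1.49 (SE 0.35, adjusted p = 0.0458, limma). The call was lost in edgeR, with quantile normalization, without the variance trend and without the filter on low genes. It was also lost without any 1 of the si-P2 or Untr libraries and without si-Ctrl replicate 1 (adjusted p up to 0.176, limma). The log2 fold change of si-Ctrl over Untr was 0.60 (adjusted p = 0.543, limma).

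*Prss53*, a serine protease, rose in si-P2 with little spread. Its normalized counts were 2169, 1914, 2109 and 2150.0 in si-P2, 1137, 994, 1439 and 855 in si-Ctrl and 1119, 1011, 1261 and 975 in Untr. Here si-Ctrl overlapped Untr, and si-P2 stood above both (log2 fold change over Untr 0.94, SE 0.14, adjusted p = 0.00315, limma). *Ddc*, the decarboxylase that makes dopamine and serotonin, had 1079, 1108, 1157 and 1372 normalized counts in si-P2, 859.7, 792, 1016 and 949 in si-Ctrl and 691, 669, 681 and 756 in Untr. The 3 groups were ordered without overlap, with si-Ctrl in between (si-P2 over Untr 0.75, adjusted p = 0.000640, limma). *Fyb1*, an adaptor protein known from T-cell signalling, had 289, 278, 296 and 292 normalized counts in si-P2 and 151, 149.7, 170.1 and 146 in Untr. Its si-P2 libraries were close together and well above Untr (log2 fold change 0.90, adjusted p = 0.0128, limma).

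The other 8 of the 12 largest increases were in genes of varied roles. *Vegp2*, a lipocalin of the von Ebner glands of the tongue, had 199.6, 182, 217 and 217 normalized counts in si-P2 and 100.2, 83.9, 92.9 and 61.4 in Untr, a log2 fold change of 1.28. It and *Ugt2b37* (1.00), a glucuronosyltransferase that conjugates steroids and drugs, belong to families of similar genes, so their reads may be shared with relatives. *Tm4sf4*, a membrane protein, had 2791, 2627, 3449.8 and 3061 normalized counts in si-P2 and 1596, 1397, 2251 and 1539.6 in Untr (0.83). The remaining log2 fold changes were 0.81 for *Rsph14*, a radial spoke protein of cilia, 0.79 for *Sdcbp2*, a scaffold protein of the syntenin type, 0.73 for *Svep1*, an extracellular matrix protein, 0.73 for *Kcnd1*, a voltage-gated potassium channel, and 0.73 for *F13b*, a subunit of a clotting factor. Adjusted p-values over these 8 genes ran from 0.00315 for *Rsph14* to 0.0492 for *Ugt2b37* (limma). *Prss53*, *Ddc* and *Rsph14* kept the call without any 1 library, and the other 9 of the 12 lost it without some library. The number lost was 4 without si-P2 replicate 1 and 4 without si-P2 replicate 2, 9 without si-P2 replicate 3 and 9 without si-P2 replicate 4, 5 without each of Untr replicates 1, 2 and 3, 6 without Untr replicate 4, and 3, 1 and 2 without si-Ctrl replicates 1, 2 and 4, with adjusted p up to 0.193 for *Ugt2b37* (limma). *Ugt2b37* and *Svep1* also lost the call with quantile normalization, without the variance trend and without the filter on low genes, and *Ugt2b37* in a fit of si-P2 and Untr alone. In si-Ctrl over Untr, the log2 values of the 12 ran from −0.07 for *Svep1* to 0.60 for *Gast*, with 0.42 for *Sdcbp2*, 0.39 for *F13b* and 0.37 for *Ddc*. None of the 12 passed there, but with the replicate block *Ddc* and *F13b* did (adjusted p = 0.0156 and 0.0321, limma). In si-P1 over Untr, *Gast* (4.02), *Sdcbp2* (1.21), *Kcnd1* (1.16) and *Svep1* (1.00) were above their si-P2 values. The rest of the 12 were below theirs, from −0.54 for *Prss53* to 1.08 for *Vegp2*.

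Some genes of low count also changed by more than 2-fold. They fall outside the rule for named genes and were chosen after their values were seen. *Cyp1a1*, a cytochrome P450 that oxidizes foreign compounds, had 48.8, 30.3, 37.3 and 36.4 normalized counts in si-P2, 17.8, 16.7, 22.8 and 17.4 in si-Ctrl and 15.3, 13.3, 22.4 and 10.9 in Untr. The si-P2 libraries were above all libraries of the other groups named (log2 fold change over Untr 1.28, adjusted p = 0.00919, limma). *Ugt2b35*, a relative of *Ugt2b37*, had 29.7, 42.9, 50.1 and 32.6 normalized counts in si-P2, 13.4, 9.81, 15.2 and 7.25 in si-Ctrl and 13.6, 7.85, 21.3 and 6.73 in Untr. Its si-P2 libraries also lay above all si-Ctrl and Untr libraries, with a log2 fold change over Untr of 1.68 (adjusted p = 0.0189, limma).

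On the lower side, *Hscb* (ENSRNOG00000037508), a mitochondrial co-chaperone that hands iron-sulfur clusters to their target proteins, changed most among genes of at least 100 normalized counts. It had 452, 490.0, 445 and 535 normalized counts in si-P2, 929, 995, 1417 and 1244 in si-Ctrl and 937, 972, 987 and 1087 in Untr. The groups were far apart beside the spread within either (log2 fold change −1.05, SE 0.13, adjusted p = 0.000332, limma), and the si-Ctrl libraries were all above si-P2. *Otulinl*, a relative of the deubiquitinase OTULIN, had 314, 414, 278 and 420.5 normalized counts in si-P2 and 535, 742, 621 and 824 in Untr. Replicates 2 and 4 were high in both groups, yet the groups did not overlap (log2 fold change −0.93, adjusted p = 0.00315, limma).

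The most abundant of the lower genes described was *Glud1* (ENSRNOG00000057367), glutamate dehydrogenase, a mitochondrial enzyme whose activation stimulates insulin secretion. Its normalized counts were 13056, 13537, 12823 and 12599.8 in si-P2, 18727, 20101, 18909.6 and 19584 in si-Ctrl and 17679.5, 17546, 18171 and 17538 in Untr. The spread within each group was small beside the gap between si-P2 and Untr, and si-Ctrl lay above Untr (si-P2 over Untr −0.45, SE 0.05, adjusted p = 0.000332, limma). *Ppp2r5d*, a regulatory subunit of the phosphatase PP2A, had 1343, 1399.7, 1302 and 1353 normalized counts in si-P2 and 1874, 2206, 1984 and 2249.7 in Untr. Again all si-P2 libraries were below all Untr libraries (log2 fold change −0.62, adjusted p = 0.000294, limma). *Smn1*, which serves the assembly of the splicing machinery, had 615, 648, 618 and 676 normalized counts in si-P2 and 930.4, 1044, 991 and 1103 in Untr. The groups were apart by more than the range of either (log2 fold change −0.67, adjusted p = 0.00338, limma).

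The 12 largest decreases also held *Gpat3*, an acyltransferase of triglyceride synthesis (−0.71), *AABR07027870.1* (−0.70), *Kdelc1*, a glucosyltransferase of the endoplasmic reticulum (−0.61), and *Il13ra1*, an interleukin receptor subunit (−0.60). *Egln3*, a prolyl hydroxylase of the hypoxia pathway, had 1637, 1876, 1633 and 1889 normalized counts in si-P2 and 2435, 2673, 2359 and 2956 in Untr (−0.56). *Klhl5*, an adaptor of ubiquitin ligases (−0.55), *Cyth2*, an exchange factor for ARF GTPases (−0.54), and *Vopp1* (−0.53) completed the set. Of these 12, 9 kept the call without any 1 library. *Il13ra1* and *Klhl5* lost it without si-P2 replicate 3, si-P2 replicate 4 or Untr replicate 2, *Klhl5* also without Untr replicate 4, and *Vopp1* without si-P2 replicate 4, at adjusted p of up to 0.0655, 0.0627 and 0.0580 (limma). In si-Ctrl over Untr, the log2 values of the 12 ran from −0.34 for *Vopp1* to 0.18 for *Hscb*. *Vopp1* passed there with the replicate block (adjusted p = 0.0179, limma).

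Gene lists were compared next, for pathways, organelles and cell types that bear on β cells or on siRNA. Of 33 lists, 22 had no member past the threshold, and 13 of the 710 distinct genes tested on the lists (1.83%) were called, where 1.05% of all genes were. The 22 lists without a call held 463 distinct tested genes. Limma gave 75 of their memberships an unadjusted p under 0.05, a larger share than the 11.8% of all genes that had one. A gene on more than 1 of these lists counts once for each, so there are more memberships than distinct genes. Beside 156 calls in edgeR and 465 in DESeq2 over all 15802 genes, these lists had 1 and 17. Besides *Gast*, *Hscb*, *Egln3* and *Glud1*, the called members included *Kcnq1*, a potassium channel (0.61, and 0.36 in si-Ctrl), *Tgfbr3*, a co-receptor for TGF-β (0.50), *Tigar*, a p53 target that restrains glycolysis (0.26), *Gcnt3*, a glycan-branching enzyme (1.24), and, on the lower side, *F3*, tissue factor (−0.42), *Ccnd3*, a D-type cyclin (−0.34), *Ndufs1*, a subunit of respiratory complex I (−0.26), and *Tmem63b*, a channel of the osmosensitive TMEM63 family (−0.24). Of these 8, each lost its call without at least 1 of the si-P2 or Untr libraries, at adjusted p of up to 0.149 for *Ccnd3* (limma). *Tmem63b* was the only call among 23 mechanosensitive and volume-regulated channels tested (0.437% of all genes were lower). In DESeq2, with the replicate block and without si-Ctrl replicate 3, 2 were lower, beside 205, 430 and 369 of all 15802 genes. *Tmem63b* had 3907, 4127, 3932 and 3945 normalized counts in si-P2, 5049.6, 5356, 5428 and 4913 in si-Ctrl and 4740.4, 4949, 4504 and 4579 in Untr. Its si-P2 values lay below both other groups (adjusted p = 0.0168, limma).

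**Figure D3:**
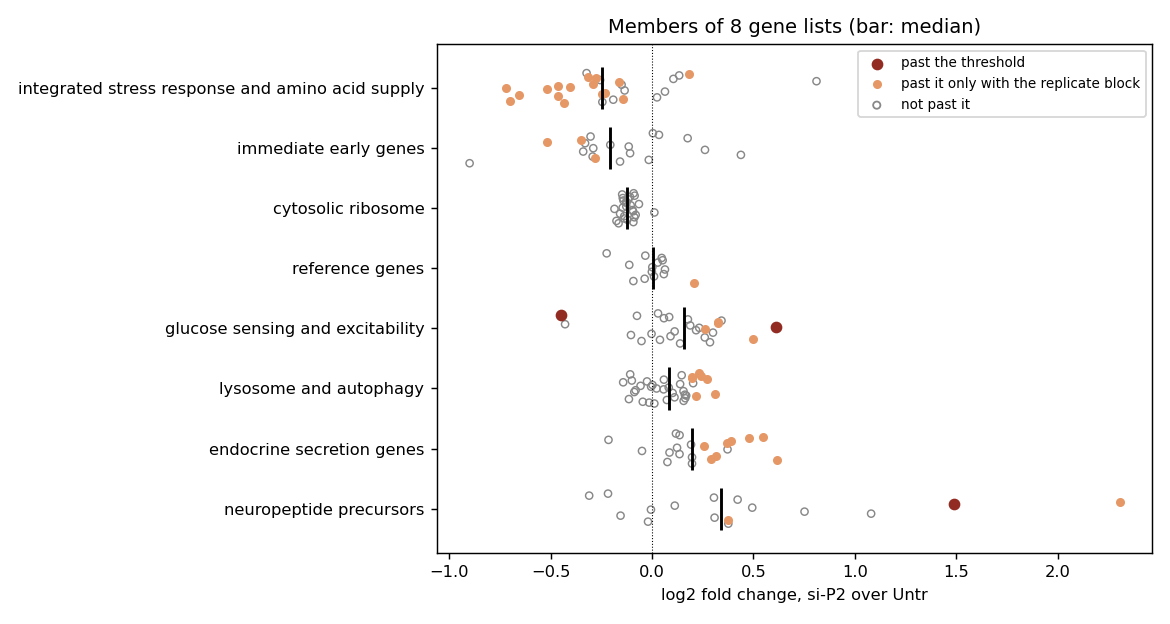
Log2 fold change of si-P2 over Untr (horizontal axis) for the members of 8 gene lists, 1 point a gene, with the median as a bar (dark red, past the threshold; orange, past it only with the replicate block; open, neither). The 27 stress response and amino acid genes in the top row have a median of −0.25 and the 20 endocrine secretion genes a median of 0.20, against 0.01 over all genes tested.

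Genes of the integrated stress response, the programme under the transcription factor ATF4 that answers a shortage of amino acids or a stressed endoplasmic reticulum, lay to the lower side together with genes of amino acid synthesis and transport. Their median log2 fold change was −0.25 over 27 tested genes. None passed the threshold in limma, while 1 higher and 9 lower had an unadjusted p under 0.05 (6.09% and 5.76% of all genes did). Calls in edgeR were 0, and DESeq2 called 1 higher and 1 lower, beside 260 and 205 of all 15802 genes. With the replicate block 1 member was higher and 15 were lower, where 3.32% and 2.72% of all genes were. *Psat1*, an enzyme of serine synthesis, had 3045, 4079, 3099 and 3804 normalized counts in si-P2, 4369.6, 6226, 5075 and 6244 in si-Ctrl and 4730.2, 6367, 5462 and 6588 in Untr. Replicates 2 and 4 were high in all 3 groups, and si-P2 was the lowest of the 3 at each number (log2 fold change over Untr −0.72, adjusted p = 0.0566, 3.41e-05 with the replicate block, limma). *Atf4* itself had 8123, 10365, 8495 and 10528 normalized counts in si-P2 and 11915, 13954, 12463 and 13056 in Untr. The groups did not overlap, with a log2 fold change of −0.46 (adjusted p = 0.211, 0.00320 with the block, limma).

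Endocrine secretion genes, which encode hormones and the proteins that process and store them, lay to the higher side, with a median log2 fold change of 0.20 over 20 genes. Again none passed in limma or edgeR, and DESeq2 called 3 higher, beside 260 of all 15802 genes. At an unadjusted p under 0.05 in limma 8 were higher and 0 lower, where 6.09% and 5.76% of all genes were. With the block 8 were higher, where 3.32% of all genes were. *Ptprn*, a membrane protein of insulin granules, had 13653, 14141, 15244 and 14164 normalized counts in si-P2 and 11603, 11268, 11851 and 9646 in Untr. All si-P2 libraries exceeded all Untr libraries (log2 fold change 0.37, adjusted p = 0.0842, 0.00316 with the block, limma), and si-Ctrl had 14628, 12480.4, 16202 and 11262, overlapping both. The subunits of the ATP-sensitive potassium channel followed the replicate number closely. *Abcc8* had 10521, 8523, 10657 and 8266 normalized counts in si-P2 and 8796, 6925, 8556 and 6155 in Untr, so the groups overlapped while si-P2 was higher at each number (log2 fold change 0.32, adjusted p = 0.437, 0.000686 with the block, limma). *Kcnj11* had the same pattern (0.33, adjusted p = 0.531, 0.00235 with the block, limma). *Cartpt*, the precursor of the CART peptide, had 300.3, 188, 446 and 152 normalized counts in si-P2, 174, 48.1, 269 and 39.1 in si-Ctrl and 86.6, 39.2, 134 and 12.6 in Untr. It varied widely between replicates within each group, and si-P2 was highest at each number (2.31, adjusted p = 0.0988, 0.00280 with the block, limma). *Cartpt* is among the 14 genes that the study singles out in si-P1 over si-Ctrl in this series. None of the 14 passed in si-P2 over Untr (limma; 4 higher and 1 lower at an unadjusted p under 0.05, edgeR 0, DESeq2 1), and 4 were higher with the block, beside the same shares of all genes. They were picked on si-P1 against si-Ctrl, libraries of the same series that are not among the 8 compared here. Whether their direction is independent of that choice was not tested.

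The non-targeting siRNA changed fewer genes. Between si-Ctrl and Untr, 14 genes passed the threshold (0.0886% of those tested), 11 higher (0.0696%) and 3 lower (0.0190%), with 1569 at an unadjusted p under 0.05. The 4 si-Ctrl values did not overlap the 4 Untr values in 4.08% of all genes. This comparison and the one above share the 4 Untr libraries. Of the 14, 10 (0.0633%) did not pass in si-P2, and for 7 of these (0.0443%) the difference between si-P2 and si-Ctrl passed as well. That difference passed in 2.08% of all genes, 0.880% higher and 1.20% lower in si-P2. With the replicate block the 14 became 207 and the 7 became 79, the second of which also uses si-P2 against si-Ctrl, where the numbers do not pair the libraries. A fit of the si-Ctrl and Untr libraries alone called 0 genes, with 644 at an unadjusted p under 0.05 in limma.

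These 7 moved in si-Ctrl but not in si-P2 by the adjusted threshold, and 6 of them are described. *Ldhb*, a lactate dehydrogenase subunit, had 572, 621, 957 and 659 normalized counts in si-Ctrl, 333, 348, 359.6 and 372 in si-P2 and 302, 311, 332 and 383 in Untr. Replicate 3 was the highest si-Ctrl library, and the si-P2 values overlapped Untr (si-Ctrl over Untr 1.05, adjusted p = 0.00577; si-P2 over si-Ctrl −0.96, adjusted p = 0.00209, limma). *Muc13*, a membrane-bound mucin, had 16651, 16406, 15697 and 15044 normalized counts in si-Ctrl, 27830.5, 24683, 25362 and 26718 in si-P2 and 28719, 23962, 27239 and 23269.6 in Untr. The si-Ctrl libraries lay below all si-P2 and Untr libraries, and si-P2 lay in the range of Untr (si-Ctrl over Untr −0.69, adjusted p = 0.0196, and si-P2 over si-Ctrl 0.71, adjusted p = 0.00298, limma). The si-P1 libraries (5749 to 7837) and the si-P1+2 libraries (8208 to 12829) were lower still. *Rnf112*, a RING-type ubiquitin ligase, had 2946, 2996, 3255 and 3231 normalized counts in si-Ctrl and 1922, 2247, 1847 and 2247 in Untr. It had the smallest adjusted p of the 14 (0.59, adjusted p = 0.00123, limma), and si-P2 overlapped Untr (0.18 over Untr). *Rab40b*, a Rab GTPase, was higher in si-Ctrl over Untr by 0.40 on the log2 scale. In si-P2 over Untr its value was 0.10. *Cux2*, a homeodomain transcription factor, and *Prps2*, which makes the sugar precursor of nucleotides, were lower in si-Ctrl (−0.32 and −0.50), against 0.12 and −0.15 in si-P2. For *Cux2* the si-P2 interval, 0.01 to 0.24, lay on the other side of 0 from si-Ctrl. With the replicate block none of the 7 passed in si-P2 over Untr, the nearest being *Rnf112* (adjusted p = 0.0605, limma).

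**Figure D4:**
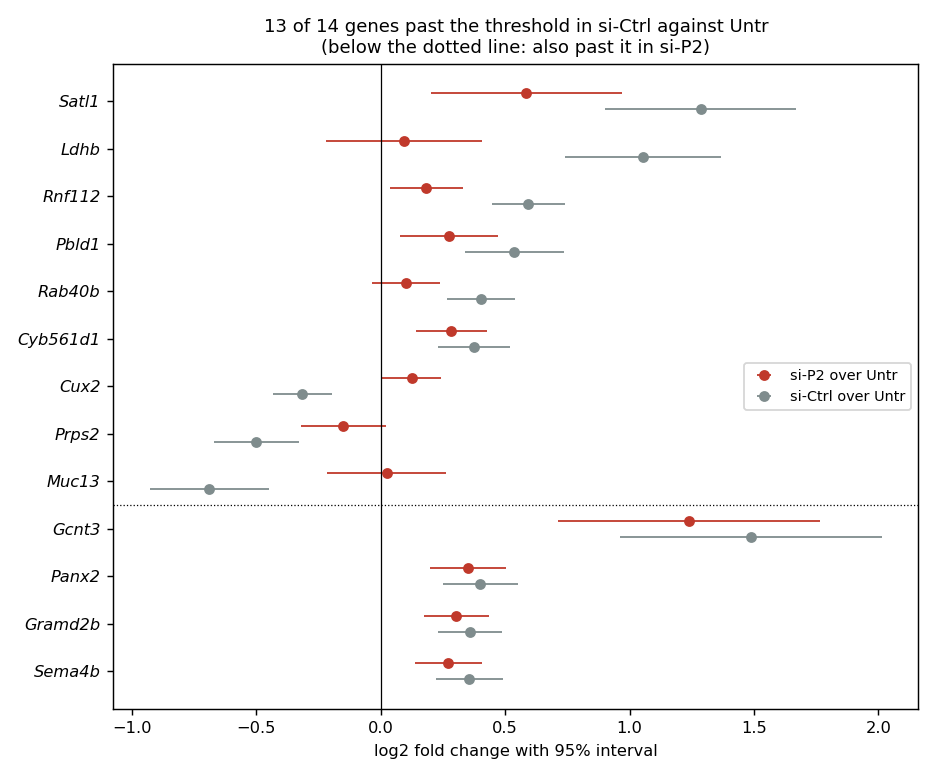
Log2 fold change over Untr with its 95% interval (horizontal axis) for 13 of the 14 genes past the threshold in si-Ctrl, in si-P2 (red) and si-Ctrl (grey). For *Ldhb*, *Rab40b*, *Prps2* and *Muc13* the si-P2 interval includes 0. For the other genes shown, *Rnf112* among them, it excludes 0, and only for *Cux2* on the side opposite to si-Ctrl. The 4 genes below the dotted line were past the threshold in both.

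The other 3 of the 10 did not pass the test of the difference, so they are not shown to be specific to si-Ctrl. *Satl1*, an acetyltransferase-like protein, had 131, 133, 121 and 141 normalized counts in si-P2, 218, 169.7, 340.1 and 165 in si-Ctrl and 76.4, 80.9, 98.5 and 94.2 in Untr. Both transfected groups were above Untr in every library (si-P2 over si-Ctrl −0.70, adjusted p = 0.0535, 0.0290 with the block, limma). In si-P2 over Untr *Satl1* did not pass with the block (adjusted p = 0.0769) and passed without si-Ctrl replicate 3 (0.0138). *Cyb561d1* (0.28 in si-P2 and 0.37 in si-Ctrl) and *Pbld1* (0.27 and 0.54) also leaned the same way in both, and with the replicate block both passed in si-P2 (adjusted p = 0.0176 and 0.0322, limma).

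Only 4 genes (0.0253%) passed in si-P2 and in si-Ctrl, all higher. *Gcnt3* had 59.9, 63.4, 101 and 80.3 normalized counts in si-P2, 86.1, 62.8, 128 and 89.9 in si-Ctrl and 18.7, 26.6, 38.1 and 48.8 in Untr. It is a gene of low count, whose transfected libraries all lay above Untr. *Gramd2b*, *Panx2*, a pannexin channel protein, and *Sema4b*, a membrane-bound semaphorin, had log2 fold changes of 0.30, 0.35 and 0.27 in si-P2, beside 0.36, 0.40 and 0.36 in si-Ctrl.

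The si-Ctrl counts moved with single libraries. The 14 became 4, 5 and 6 without Untr replicates 1, 2 and 3, and 9, 25, 33 and 7 without si-Ctrl replicates 1, 2, 3 and 4. All 14 genes were among the 33. Of the 14, 11 lost the call without some library, and *Rnf112*, *Ldhb* and *Satl1* kept it each time. The 7 became 3, 2 and 3 without Untr replicates 1, 2 and 3, and 13, 18 and 4 without si-Ctrl replicates 2, 3 and 4.

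In the other direction, 162 of the 166 genes (1.03% of those tested) did not pass in si-Ctrl, and 90 (0.570%) also passed the test of si-P2 against si-Ctrl, 39 higher and 51 lower. For the rest the difference between the siRNAs was not shown. Of the 12 largest decreases, all but *Vopp1* were among the 90, and of the 12 largest increases *Vegp2*, *Prss53*, *Fyb1*, *Rsph14*, *Ddc* and *Svep1* were. In si-P1 over Untr, without *Piezo2* siRNA, these increases had, in that order, 1.08, −0.54, −0.10, 0.56, 0.17 and 1.00. There *Otulinl* had −0.65, *Egln3* −0.53 and *Klhl5* −0.47. The other decreases among the 90 of this set ran from −0.25 (*Il13ra1*) to 0.26 (*Kdelc1*). Being among the 90 does not show a change to be particular to the *Piezo2* siRNA. With the replicate block the 90 became 509, although the numbers do not pair si-P2 with si-Ctrl, and with only the groups compared in each fit they became 3. The difference from si-Ctrl passed in a fit of these groups alone for 2 of the 90, *Hscb* and *Glud1*. With the replicate block, *Ddc*, *Tgfbr3*, *Kif1c* and *Cd276*, 4 of the 90, passed in si-Ctrl over Untr, the last 2 named after their values were seen. *Suox*, sulfite oxidase, had 3761, 3162, 3946 and 3774 normalized counts in si-P2, 2805, 2337, 3055 and 2329 in si-Ctrl and 2423, 2006, 2436 and 2342 in Untr. All si-P2 libraries exceeded all libraries of both controls (log2 fold change over Untr 0.67, adjusted p = 0.00919, limma). *Fam151a* had 601, 566, 617 and 626 normalized counts in si-P2, 390.5, 352, 510.1 and 270.3 in si-Ctrl and 426, 367, 360.4 and 345 in Untr. Its si-Ctrl replicates spread widely around the Untr range (si-P2 over Untr 0.69, adjusted p = 0.0246, limma). The call was lost without any 1 of the si-P2 libraries and without Untr replicate 2, 3 or 4 (adjusted p up to 0.0863, limma). *Fam151a* was higher still in the other groups, at 2.03 over Untr in si-P1 and 1.74 in si-P1+2. The same values were 0.03 and 0.25 for *Suox*, and −0.005 and 0.37 for *Tgfbr3*. *Tgfbr3* had 1285, 1457, 1481 and 1593 normalized counts in si-P2, 744, 788, 510.1 and 820.3 in si-Ctrl and 1121, 1022, 1031 and 931 in Untr. Here the siRNAs lay on opposite sides of Untr (si-P2 over si-Ctrl 1.04, adjusted p = 0.000136; si-Ctrl over Untr −0.54, adjusted p = 0.0913, 0.0345 with the block, limma). The count of 90 was 57, 43, 18 and 22 without si-P2 replicates 1 to 4, 54, 35, 43 and 51 without Untr replicates 1 to 4, and 270 without si-Ctrl replicate 3.

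The *Piezo2* siRNA was also present in si-P1+2, and si-P1+2 over si-P1 takes its fold changes from none of the 8 libraries above, nor si-Ctrl. In the fit of all 20 libraries its p-values rest on the shared spread, so the counts at an unadjusted p are from a fit of the si-P1+2 and si-P1 libraries alone. The 166 genes were themselves called with a spread that includes these libraries, which favours genes that vary little in them. The counts at an unadjusted p are therefore not independent of the calling, and their excess over all genes cannot be read as separate support. Both looks were chosen after the data were seen. Only 7 genes (0.0443%) passed in that comparison in the fit of all libraries, all lower, and 2 in the fit of its own 8. Of the 69 genes lower in si-P2 over Untr, 63 (91.3%) were below 0 there, where 49.0% of all genes were, with a median of −0.14. At an unadjusted p under 0.05, 35 of the 69 were lower, where 5.25% of all genes were. Of the 97 higher genes, 54 (55.7%) were above 0, where 51.0% of all genes were, with a median of 0.03, and 21 were higher at an unadjusted p under 0.05, where 4.16% of all genes were. One of the 166, *Kdelc1*, passed the threshold in the fit of all libraries, and missed it in the fit of 8 (adjusted p = 0.0639), where *Cyth2* was the 1 of the 166 that passed (log2 fold change −0.34, adjusted p = 0.0380, limma). *Kdelc1* had 311, 352, 349.7 and 308 normalized counts in si-P1+2 and 490.2, 453, 547 and 512 in si-P1, beside 271, 264, 289 and 265 in si-P2 and 462, 376, 439 and 393 in Untr. In both comparisons the cells with *Piezo2* siRNA were lower in every library (log2 fold change −0.60, adjusted p = 0.0137, and −0.61, adjusted p = 0.00305, limma). *Hscb* had −0.51 in si-P1+2 over si-P1, *Smn1* −0.38 and *Ppp2r5d* −0.35, while *Glud1* had −0.05 and *Egln3* −0.01. Among the higher genes, *Prss53* had 0.64 and *Ddc* 0.31, and *Gast* had −0.54, the other sign from its value in si-P2 over Untr. Over Untr, however, *Gast* had 4.02 in si-P1 and 3.48 in si-P1+2, both above its value in si-P2. The same values were −0.53 and −0.54 for *Egln3* and −0.11 and −0.16 for *Glud1*. For *Prss53*, si-P1 lay below Untr (−0.54), and si-P1+2 did not pass against Untr (0.09, adjusted p = 0.772, limma). For *Ddc* the values over Untr were 0.17 in si-P1 and 0.48 in si-P1+2.

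**Figure D5:**
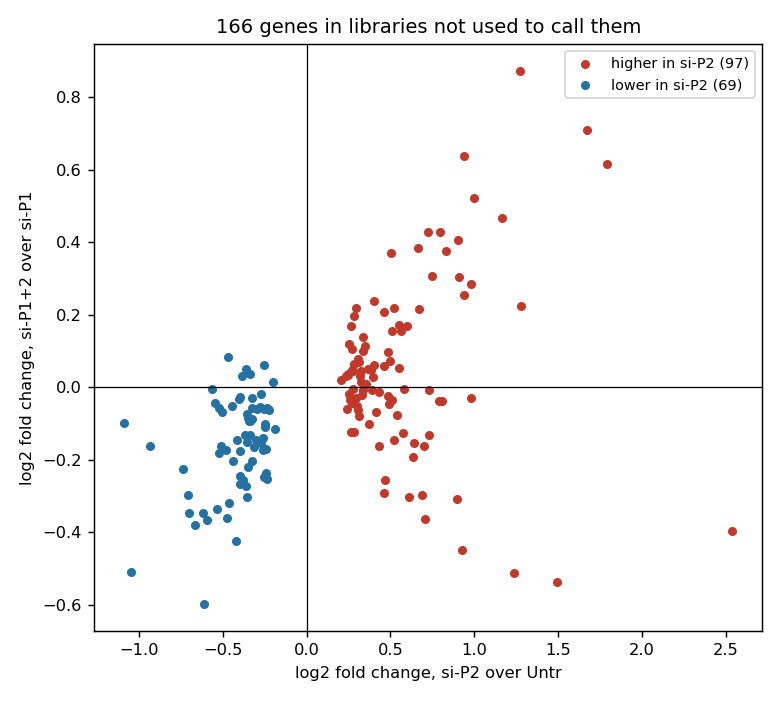
Log2 fold change of si-P1+2 over si-P1 (vertical axis) by that of si-P2 over Untr (horizontal axis) for the 166 genes past the threshold in si-P2 over Untr, 1 point a gene. Of the 69 lower genes 63 lie below 0 on the vertical axis, and of the 97 higher genes 54 lie above it.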

How the data were processed

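Poly(A) mRNA was sequenced from 20 libraries, 4 for each of 5 groups. The deposited signal values are normalized counts, which the authors made by dividing each library's gene counts by a DESeq2 (1.25.10) size factor. Per the labels, reads were checked with FastQC (0.11.8) and MultiQC (1.7) and quantified with Salmon (0.14.0) on Rnor_6.0. How transcripts were summed to genes is not given in the sources used here. All 20 columns matched a sample. Dividing by the value of 1 read gave whole reads for 100% of values, within 0.001.

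Genes detected in at least 10 libraries (15802 of 23487) were tested. The genes left out held 0.00569% of the reads. Of the names, 14 had become dates and are known by Ensembl number, and 77 symbols stand on more than 1 number. In R (4.3.3), log2(value + 1) was fitted with limma (3.58.1), with 1 mean per group over 20 libraries, 15 residual degrees of freedom and a variance trend. Fold changes are on that scale, which understates the change of low genes. Tests were two-sided, with Benjamini-Hochberg adjustment over all genes tested and a threshold of 0.05. A gene moved in one group but not the other if it passed in the first, did not pass in the second, and passed between the siRNAs. Alternatives were pseudocounts of 0.5 and 5, no filter, a mean of at least 10, equal totals, quantile normalization, no trend, only the groups compared, the replicate block, each replicate left out, and count tests of the recovered reads in edgeR (4.0.16) and DESeq2 (1.42.0). The scripts were tested on simulated data.

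What a replicate number stands for is not stated. Over 11698 genes with a mean of at least 50, deviations of same-numbered si-P2 and Untr libraries correlated at 0.387, 0.293, 0.143 and 0.429, and those of si-Ctrl and Untr at 0.323, 0.355, 0.154 and 0.437, so the numbers were taken to pair these groups. For si-P2 replicate 3 over these 11698 genes, an Untr library of another number correlated more closely, so its pairing is weak. Over all genes replicate 3 gave only 0.0976 for si-P2 and 0.0766 for si-Ctrl, although the same-numbered Untr library was the closest. Between si-P2 and si-Ctrl replicate 3 gave −0.167, and these are not taken as paired. The counts with the block had been seen before this was read. Whether the replicates were separate cultures is not stated either, and the spread behind each p-value may therefore be technical only.

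The comparison and the 33 gene lists were chosen with earlier results of these data known, although the filter that fixes the genes tested uses no difference between groups. Of 829 list entries 807 matched a gene, and 737 of those were tested. Named were *Piezo1*, *Piezo2*, the 12 largest changes each way among called genes without overlap and with a mean of at least 100 in either group, up to 8 each way that moved in one siRNA group only, up to 6 each way in both, and up to 4 called members of a list. Other genes named with values were chosen after their values were seen. A few genes that the rule selects are counted but not reported here by name.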

Additional observations from a re-analysis of the deposited data

Results flagged for a closer look

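In 162 groups of 4 libraries (51 genes and the library totals), the highest or lowest library was checked against the gap expected within 4 values, and 7 groups stood out. Chance gives about 1 in 20. *Tmem63b* was 4127 normalized counts in si-P2 replicate 2, with the other si-P2 libraries at 3907 to 3945. *Svep1* was 649 in 1 si-P2 library, replicate 3, with the others at 428 to 457. In si-Ctrl, replicate 3 was high for *Sdcbp2*, at 364 with the others at 213 to 232, and for *Tm4sf4*, at 2709 with the others at 1744 to 1849. *Cux2* was 3348 in 1 Untr library, with the others at 3035 to 3069. The normalized total was 35103500 in si-Ctrl replicate 3, with the other si-Ctrl libraries at 31432600 to 31827800, and its median normalized count was 442, with the others at 517 to 526.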

How the results depend on the processing

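The 4 counts compared were genes changed in si-P2 over Untr (166), in si-Ctrl over Untr (14), in si-Ctrl but not si-P2 (7) and in si-P2 but not si-Ctrl (90). DESeq2 on the recovered reads gave 465, 103, 42 and 235. Only the groups compared gave 493, 0, 0 and 3. The replicate block gave 955, 207, 79 and 509. It gave 3262, 605, 161 and 1240 when si-Ctrl replicate 3 was also left out, an alternative chosen after seeing the data. The numbers pair si-P2 and si-Ctrl with Untr but not with each other, which the last 2 counts also use. All 4 counts rest on block effects shared by all groups, of which si-P1 and si-P1+2 were not checked for pairing. Leaving out single libraries gave 34 to 819, 4 to 33, 2 to 18 and 18 to 270. The other alternatives stayed within 1.5 times these counts. The cause was not tested. For the single genes named, over 24 alternatives, 1037 values kept their direction and side of the threshold, 235 kept the direction but missed the threshold, and 0 reversed. Of 39 genes named in si-P2, 14 kept the call under every alternative run. The scalings moved the median of all genes by at most 0.01 on the log2 scale. The few reads of *Piezo2* limit what can be said of its knockdown, and 15 of the higher genes had under 100 normalized counts in both groups.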
